A study of Homo sapiens with 4 samples.

Results

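The genes described here are the protein-coding genes of human chromosome 19 whose GENCODE 29 name begins with ZNF, the symbol given to many zinc finger genes. The rule uses annotation alone and no measured value, though it was set with earlier results of these data known. The genes number 249 of the 56865 genes (19692 of them protein coding) that the deposited transcripts cover. The samples were MDA-MB-468 cells, a human triple-negative breast cancer line, at passage 12. Poly(A)-selected RNA was sequenced after 5 µM MS1943 for 3 days (n = 2) or after the vehicle DMSO (n = 2; the labels give no separate time for it). The series title calls MS1943 a degrader of EZH2, which methylates lysine 27 of histone H3. The comparison asks how the compound changed the transcriptome, and here in which direction each cluster of zinc finger genes on chromosome 19 moved. The result describes 1 cell line at a single dose and time.

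Most ZNF genes of chromosome 19 encode proteins with arrays of C2H2 zinc fingers, each finger holding a zinc ion and contacting a few bases of DNA, behind an amino-terminal KRAB domain. The KRAB domain recruits TRIM28 (KAP1), which brings in the H3K9 methyltransferase SETDB1 and HP1 proteins and thereby silences the bound DNA, often a transposable element. The genes arose by repeated tandem duplication and stand in clusters of close relatives. The 3′ ends of many of them are themselves packed into chromatin marked by trimethylated H3K9.

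With MS1943, 134 of the 240 tested ZNF genes of chromosome 19 fell and 36 rose, at an adjusted p under 0.05 in the quasi-likelihood test of edgeR, adjusted by Benjamini-Hochberg over all tested genes. Another 70 did not pass, and 9 had too few reads to be tested. Over all 19358 tested genes 59.3% passed, 29.4% lower and 30% higher, while among the chromosome 19 ZNF genes 55.8% were lower and 15.0% were higher. Their median log2 fold change, MS1943 over DMSO, was -0.31, beside -0.01 over all tested genes. The fall was uneven along the chromosome: in a cluster on the short arm running from ZNF101 to ZNF254, 32 of 33 tested genes fell and none rose, with a median of -1.07. There none was higher at an unadjusted p under 0.05 either, in edgeR, or by DESeq2. In the cluster nearest the end of the long arm, ZNF628 to ZNF446, 20 of 59 fell and 15 rose, with a median of -0.06 (25 and 8 when scaled by total reads alone). In bulk RNA, fewer cells expressing a gene and less RNA per cell cannot be told apart.

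The promoters of the ZNF101 to ZNF254 cluster resembled one another, and a few are shown because the members differ in how far they moved. Each line gives the 250 bases before the RefSeq start of the gene (RefSeq, GRCh38.p14), 5′ to 3′ on the strand of the gene. Capitals mark the 10-base word TCCAATCAGG, the ETS motif CCGGAAG in either orientation and the sequence CCAAT in either orientation. ZNF681 and ZNF726 had the largest falls of the cluster, and ZNF91 a small one:
ZNF681 (chr19:23758892-23759141, minus strand): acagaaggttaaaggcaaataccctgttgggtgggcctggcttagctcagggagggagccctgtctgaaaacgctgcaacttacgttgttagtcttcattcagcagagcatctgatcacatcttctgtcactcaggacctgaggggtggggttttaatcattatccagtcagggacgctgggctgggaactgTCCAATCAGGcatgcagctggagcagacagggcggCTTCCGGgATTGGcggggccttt
ZNF726 (chr19:23914636-23914885, plus strand): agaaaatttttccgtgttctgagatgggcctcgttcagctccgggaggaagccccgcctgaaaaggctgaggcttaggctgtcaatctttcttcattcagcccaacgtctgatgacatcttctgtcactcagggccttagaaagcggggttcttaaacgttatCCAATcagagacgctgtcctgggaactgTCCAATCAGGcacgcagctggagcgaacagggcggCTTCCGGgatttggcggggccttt
ZNF91 (chr19:23395472-23395721, minus strand): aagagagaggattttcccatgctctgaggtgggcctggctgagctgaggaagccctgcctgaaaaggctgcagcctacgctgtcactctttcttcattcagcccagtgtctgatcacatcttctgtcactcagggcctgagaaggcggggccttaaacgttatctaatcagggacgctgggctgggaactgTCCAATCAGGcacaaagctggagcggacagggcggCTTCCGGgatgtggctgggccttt
ZNF83 and ZNF229 lie in other clusters and rose, and none of these letters stands in capitals in their windows. These lines do not stand for all rises or falls. In windows of 300 bases, 38 tested members outside the cluster held both CCAAT and the ETS motif. Of these 7 rose, by up to 1.0 on the log2 scale, and 17 fell. Of the 145 others with a window, 25 rose and 73 fell. ZNF714 of the cluster (log2 fold change -1.31) had the word but no ETS motif in its 250 bases. The lines of ZNF83 and ZNF229 are:
ZNF83 (chr19:52690497-52690746, minus strand): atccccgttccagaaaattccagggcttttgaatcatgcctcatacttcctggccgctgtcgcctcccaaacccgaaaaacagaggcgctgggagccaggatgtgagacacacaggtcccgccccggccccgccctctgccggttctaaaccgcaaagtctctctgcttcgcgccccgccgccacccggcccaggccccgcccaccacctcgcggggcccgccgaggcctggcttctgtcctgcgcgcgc
ZNF229 (chr19:44448473-44448722, minus strand): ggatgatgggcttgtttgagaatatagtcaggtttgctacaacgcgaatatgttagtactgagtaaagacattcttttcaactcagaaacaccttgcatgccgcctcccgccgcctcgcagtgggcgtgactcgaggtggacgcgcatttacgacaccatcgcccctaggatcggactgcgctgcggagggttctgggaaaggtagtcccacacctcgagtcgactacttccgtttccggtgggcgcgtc

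The libraries held 69878745 and 47564377 estimated reads with MS1943 and 64720699 and 71378893 with DMSO. Counts of the 2 libraries of each group were farther apart than counting alone gives (chi-square over its degrees of freedom 6.5 with MS1943 and 7.01 with DMSO), so none was taken for a copy. Nothing in the labels says that replicates came from separate cultures beyond duplicate dishes, so the p-values cover the spread among these 4 samples, part or all of which may be technical. Epithelial markers fitted the label, with summed levels of KRT5, KRT8, KRT18, EPCAM and CDH1 of 6550 and 6130 CPM (reads scaled to a common library size by TMM) with MS1943 and 4270 and 4000 CPM with DMSO. KRT5 alone had 4090 and 3690 CPM with MS1943, against 1080 and 1060 CPM with DMSO. KRT8 and CDH1 were called lower (log2 fold changes -0.66 and -0.24), and KRT18 and EPCAM did not pass. Of 3 leukocyte markers, PTPRC and CD3E stayed at or under 0.15 CPM in all 4 libraries, and CD68 had 32.0 and 29.7 CPM with MS1943, against 1.08 and 0.826 CPM with DMSO. The 3 fibroblast markers summed to 31.8 and 28.2 CPM with MS1943 and to 21.2 and 20.9 CPM with DMSO, almost all from COL1A1, and the 3 endothelial markers stayed under 2 CPM. Mitochondrial genes took 3.52% and 3.11% of reads with MS1943 and 1.65% and 1.78% with DMSO. Whether these shifts had a part in the results below was not tested. RNA-seq does not measure the EZH2 protein that the compound is said to degrade, and the EZH2 transcript had 104 and 108 CPM with MS1943, against 126 and 117 CPM with DMSO (log2 fold change -0.19 ± 0.06 SE, edgeR adjusted p = 0.00605).

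Taken as a whole, the 249 genes had a summed level of 3429 and 3488 CPM with MS1943, against 3818 and 3798 CPM with DMSO. The groups did not overlap, and the log2 ratio of their means was -0.14. The same sum per transcript length was 2443 and 2529 TPM with MS1943 and 2830 and 2987 TPM with DMSO, a log2 ratio of -0.23. As a share of all reads it was 0.328% and 0.337% with MS1943 and 0.390% and 0.401% with DMSO. With 2 libraries against 2, an exact two-sided permutation test of such a sum cannot give a p below 0.333. The number of the 249 genes at or above 1 TPM was 225 in both MS1943 libraries, and 232 and 234 with DMSO. Such sums weigh the most abundant members most.

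Both MS1943 libraries lay below both DMSO libraries for 164 of the 240 tested genes and above them for 48. Over all tested genes these shares were 39.9% and 38.4%. Falls of at least 2-fold were made by 34 genes and rises of at least 2-fold by 5, beside 7.93% and 7.97% of all tested genes. The direction was shared in part by ZNF genes elsewhere in the genome. Of 234 tested protein-coding ZNF genes of other chromosomes, 95 (40.6%) fell and 51 (21.8%) rose, with a median log2 fold change of -0.15. Among the 897 other tested protein-coding genes of chromosome 19, 291 fell and 287 rose, with a median of -0.03. Scaled by total reads alone, which lowered the median of all tested genes to -0.12, these were 367 and 227, against 153 and 24 for the chromosome 19 ZNF genes.

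**Figure D1:**
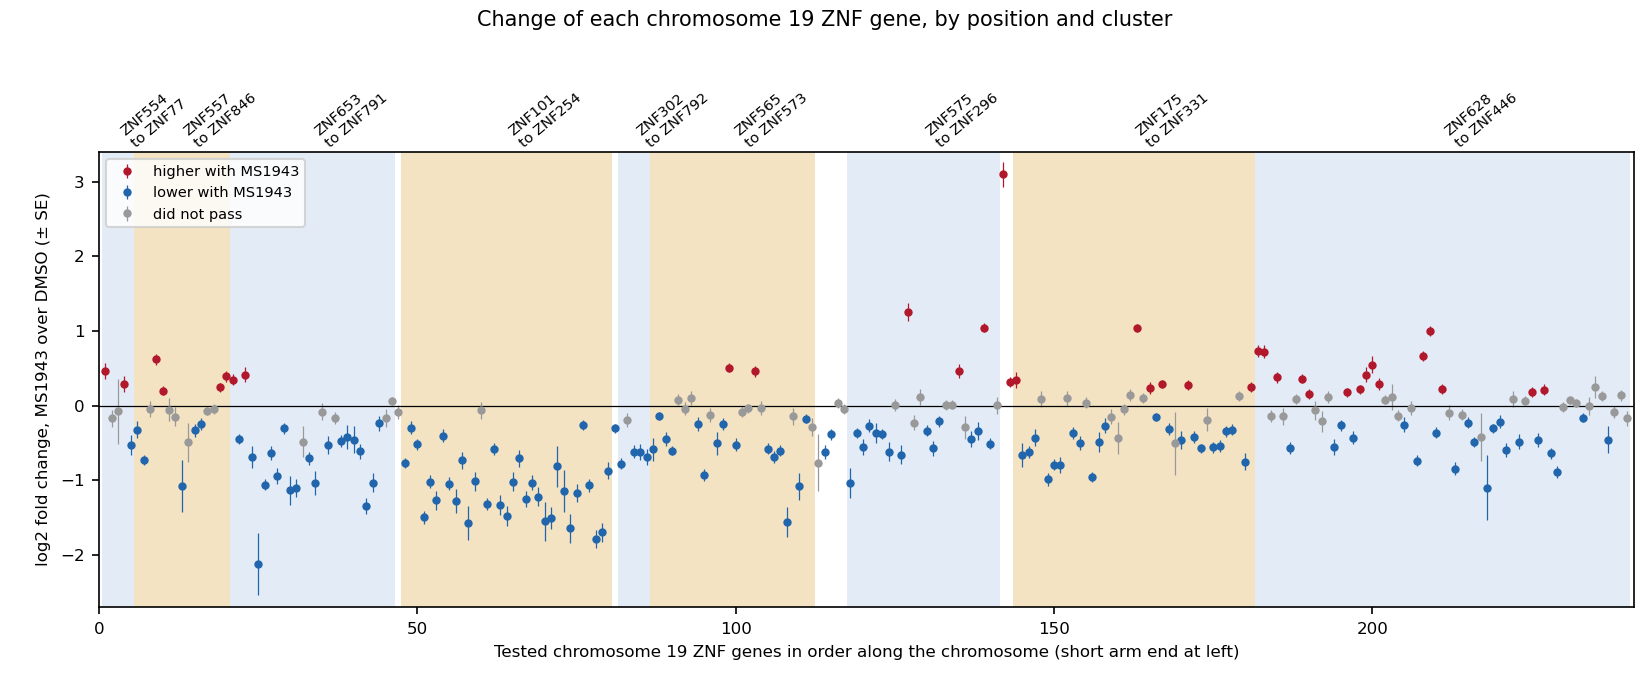
Each point is a tested ZNF gene of chromosome 19 in its order along the chromosome, with its log2 fold change (MS1943 over DMSO) on the vertical axis, bars of 1 SE and shading for the 9 clusters. The 33 points of the ZNF101 to ZNF254 cluster all lie below 0, while the ZNF628 to ZNF446 cluster at the right straddles it.

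Members were grouped into a cluster where neighbouring gene starts lay at most 1 Mb apart and at least 4 genes were joined. That gave 9 clusters, with 11 scattered genes left over. On the short arm 57 of 80 tested genes fell and 8 rose (median log2 fold change -0.62), and on the long arm 77 of 160 fell and 28 rose (median -0.21). Lower calls outnumbered higher ones in 8 of the 9 clusters, and the exception was the small ZNF554 to ZNF77 cluster, where scaling by total reads made the calls 1 and 1. In ZNF557 to ZNF846 lower calls did not outnumber higher ones with DESeq2 or the length offset, or without DMSO replicate 1, MS1943 replicate 1 or MS1943 replicate 2. Neighbours tended to move alike: Spearman's rho between the log2 fold change of a gene and that of the next tested gene was 0.41 over 239 pairs, and 0.26 over 206 pairs once the ZNF101 to ZNF254 cluster was set aside. These are descriptions across genes that share libraries and, in part, sequence, and genes are not independent replicates.

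**Figure D2:**
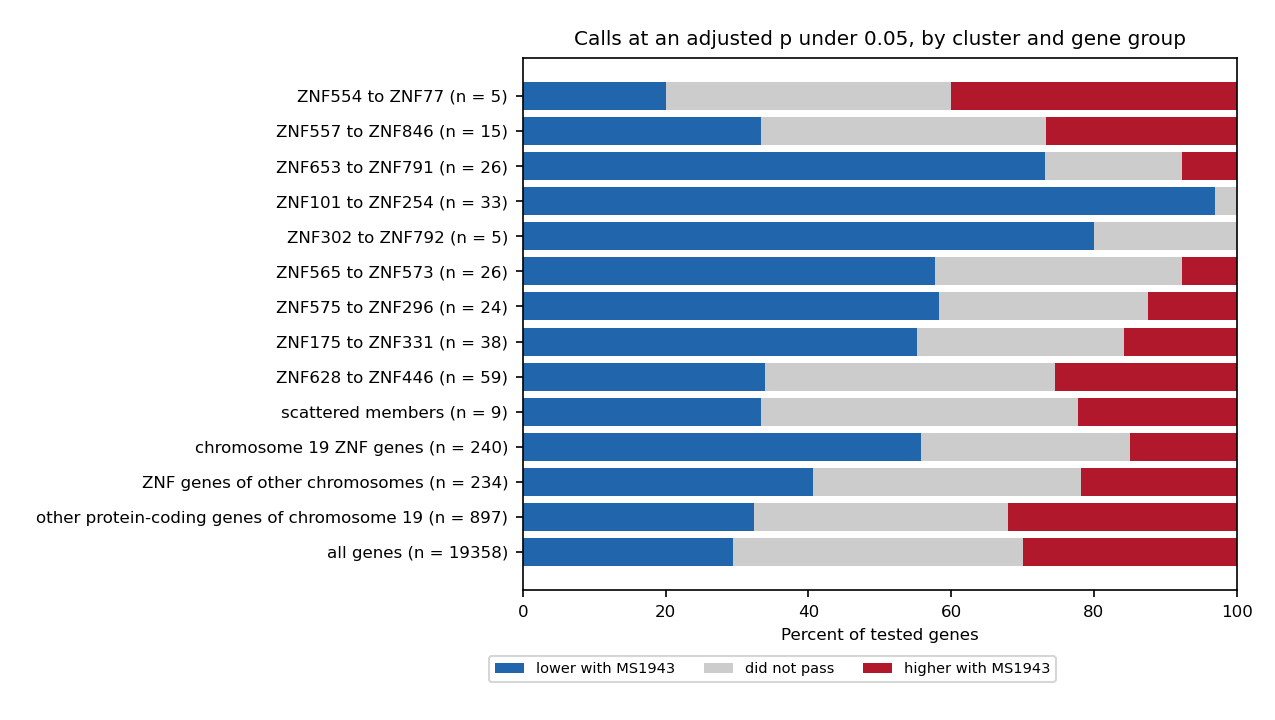
Bars give the percent of tested genes that were lower, did not pass or were higher with MS1943 at an adjusted p under 0.05, for each chromosome 19 cluster from the short arm (top) to the long arm, then for comparison groups. Only 1 of 33 genes of the ZNF101 to ZNF254 cluster did not pass, against 24 of 59 in ZNF628 to ZNF446.

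The ZNF101 to ZNF254 cluster spans positions 19668796 to 24129961 of chromosome 19 on hg38 and holds 37 of the 249 genes, 33 of them tested. Its summed level was 176 and 183 CPM with MS1943, against 329 and 329 CPM with DMSO, a log2 ratio of -0.87 (-0.95 in TPM). These genes made up 5.13% and 5.25% of the summed CPM of chromosome 19 ZNF genes with MS1943 and 8.60% and 8.67% with DMSO. All 33 tested genes had both MS1943 libraries below both DMSO libraries, and 22 fell at least 2-fold, of 34 such falls among all chromosome 19 ZNF genes. Of the cluster's 37 genes, 4 (ZNF208, ZNF676, ZNF729 and ZNF723) had too few reads to test. Setting the cluster aside, 102 of the remaining 207 tested genes fell and 36 rose, with a median of -0.23.

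ZNF681 (ENSG00000196172, chr19:23739195-23758891, minus strand) had 2.53 and 2.56 CPM with MS1943, against 9.45 and 8.12 CPM with DMSO. Its log2 fold change of -1.79 ± 0.12 (SE; edgeR adjusted p = 3.18e-10) was the largest fall among members with an average of at least 1 CPM. ZNF726 had 2.29 and 3.06 CPM with MS1943 and 8.66 and 8.46 CPM with DMSO, a log2 fold change of -1.70 ± 0.13. In both genes the groups were far apart compared with the gap between replicates. ZNF730 had 0.782 and 0.809 CPM with MS1943 and 2.48 and 2.49 CPM with DMSO (-1.64 ± 0.20). ZNF66 had 0.572 and 0.634 CPM with MS1943 and 1.72 and 1.87 CPM with DMSO (-1.58 ± 0.23). These are low levels, and the SE grew as the reads thinned. ZNF492 had 1.75 and 1.62 CPM with MS1943 and 4.83 and 4.74 CPM with DMSO (-1.50 ± 0.15). ZNF253 (chr19:19865886-19894674, plus strand), near the other end of the cluster, had 5.48 and 5.77 CPM with MS1943 and 15.4 and 16.3 CPM with DMSO (-1.50 ± 0.09, adjusted p = 3.84e-11). Falls of this size were thus present at both ends of the cluster.

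ZNF98 had 0.496 and 0.612 CPM with MS1943 and 1.32 and 1.88 CPM with DMSO (-1.55 ± 0.26, edgeR adjusted p = 3.85e-05). With an offset for the average effective transcript length its change was -0.92 and the call ended (adjusted p = 0.0514), and only 50.1% of its 31-base words occur in no other gene. ZNF430 was the sole tested member of the cluster that did not pass, with 4.96 and 5.11 CPM with MS1943 and 5.24 and 5.26 CPM with DMSO (-0.06). It was named after its values were seen.

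Most other annotated genes inside the cluster's interval had too few reads to test. Of 118 pseudogenes 13 could be tested, and 9 of these fell and none rose, with a median log2 fold change of -1.28 (0 rose in edgeR at an unadjusted p under 0.05, and 0 by DESeq2). Of 47 non-coding RNA genes 20 could be tested, with 7 lower, 2 higher and a median of -0.43. Neither of the 2 other protein-coding genes had enough reads. Strand is not recorded by the kit, and reads of genes that overlap on opposite strands cannot be told apart, and pseudogene reads can come from a parent gene.

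**Figure D3:**
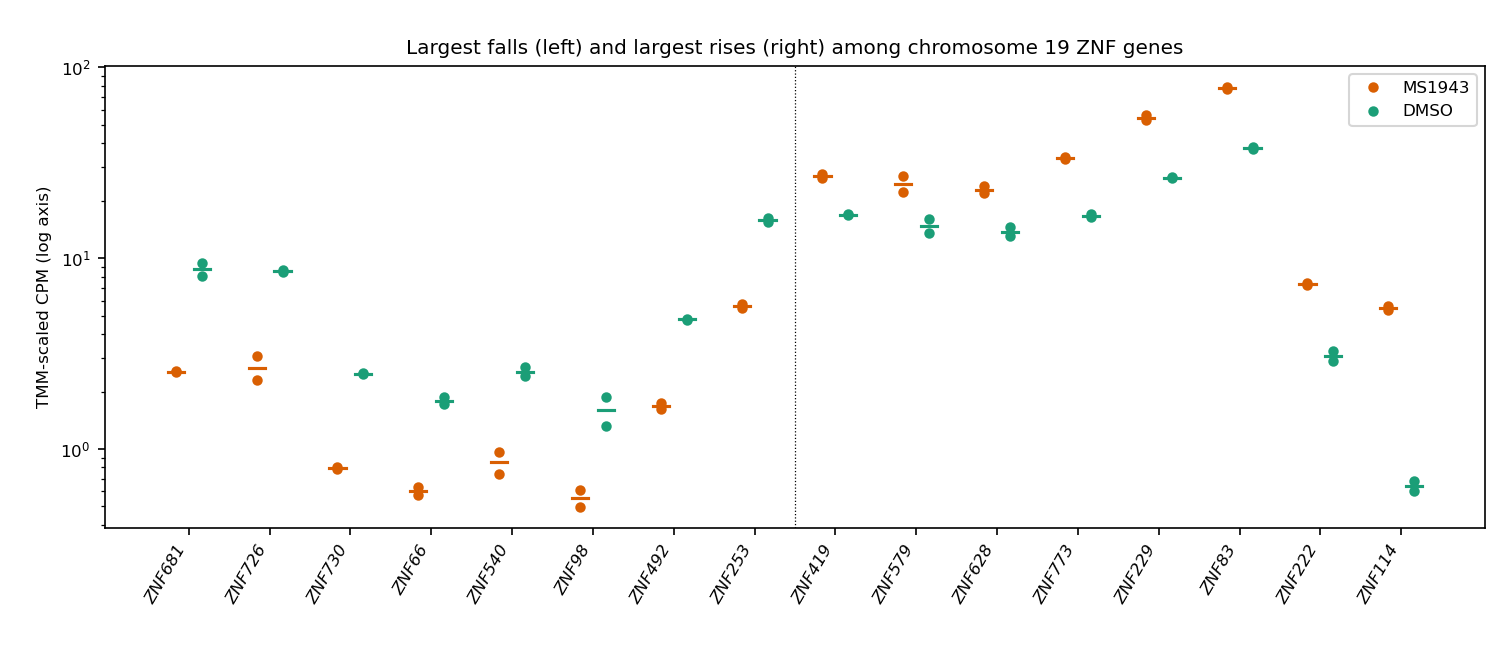
TMM-scaled CPM (log axis) in each library, MS1943 left of DMSO within a gene, with lines at group means (n = 2), for the 8 largest falls and the 8 largest rises among members with an average of at least 1 CPM. Only called genes whose groups do not overlap were eligible, so the lack of overlap in these 16 genes was a condition of the choice. ZNF114 is the gene with the widest gap among the rises.

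Rises were fewer, came from several clusters and were mostly moderate. ZNF114 (ENSG00000178150, chr19:48270102-48287608, plus strand), a KRAB gene that stands outside the clusters, had 5.61 and 5.38 CPM with MS1943, against 0.683 and 0.600 CPM with DMSO. Its log2 fold change of 3.10 ± 0.17 (edgeR adjusted p = 9.65e-12) stood well above that of every other member. ZNF222 followed with 7.27 and 7.45 CPM with MS1943 and 3.28 and 2.88 CPM with DMSO (1.26 ± 0.12). ZNF83 (chr19:52594060-52690496, minus strand), among the more abundant members, had 79.0 and 76.8 CPM with MS1943 and 38.2 and 37.4 CPM with DMSO (1.04 ± 0.06). ZNF229 (chr19:44417519-44448578, minus strand) had 52.8 and 56.1 CPM with MS1943 and 26.6 and 26.3 CPM with DMSO (1.04 ± 0.06). ZNF773 had 33.8 and 33.0 CPM with MS1943 and 17.1 and 16.4 CPM with DMSO (1.0 ± 0.07). These 5 were the members that at least doubled. ZNF628, ZNF579 and ZNF419 followed with log2 fold changes of 0.73, 0.72 and 0.66.

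The ZNF653 to ZNF791 cluster, also on the short arm, had 19 of 26 genes lower, 2 higher and a median of -0.50. ZNF440, which had the smallest adjusted p there, had 12.1 and 13.1 CPM with MS1943 and 27.0 and 25.2 CPM with DMSO (-1.06 ± 0.07). ZNF653, encoding a zinc finger repressor without a KRAB domain, had 17.8 and 17.4 CPM with MS1943 and 14 and 13.8 CPM with DMSO (0.34 ± 0.07), a call that ended with the length offset (adjusted p = 0.102). ZNF491 of this cluster, named after its values were seen, had the lowest fitted change of all members (-2.12 ± 0.41) at under 1 CPM in all 4 libraries. The ZNF557 to ZNF846 cluster was mixed, with 5 of 15 tested genes lower and 4 higher (median -0.07); these were 7 and 3 with scaling by total reads, 2 and 4 with DESeq2, and 2 and 3 with the length offset. ZNF358 fell by 0.73 on the log2 scale and ZNF558, a KRAB repressor of the mitophagy gene SPATA18 in human cells, rose by 0.62. In the ZNF554 to ZNF77 cluster 2 of 5 genes were higher and 1 lower, with ZNF554 at 0.46 and ZNF77 at -0.52.

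On the long arm, 4 of the 5 genes from ZNF302 to ZNF792 fell (median -0.62), and ZNF302 had 15 and 15.6 CPM with MS1943 and 26.9 and 25.5 CPM with DMSO (-0.78 ± 0.07). From ZNF565 to ZNF573, 15 of 26 fell and 2 rose (median -0.24). ZNF540, the only one of the 8 largest falls outside the ZNF101 to ZNF254 cluster, had 0.963 and 0.743 CPM with MS1943 and 2.40 and 2.69 CPM with DMSO (-1.56 ± 0.20). ZNF568, whose mouse counterpart silences a placental promoter of Igf2, rose by 0.51 on the log2 scale in the same cluster. ZNF850 there fell by 0.93, but its change was -0.08 with the length offset (adjusted p = 0.638). From ZNF575 to ZNF296, 14 of 24 fell and 3 rose (median -0.31), with ZNF229 above at 1.04 and its neighbour ZNF180 at -0.51. The ZNF180 call ended when only protein-coding transcripts were counted (-0.14, adjusted p = 0.352).

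From ZNF175 to ZNF331, 21 of 38 tested genes fell and 6 rose (median -0.33). ZNF480 had 17.7 and 17.2 CPM with MS1943 and 34.6 and 33.5 CPM with DMSO (-0.96 ± 0.07), opposite to ZNF83 in the same cluster. The largest cluster by number, ZNF628 to ZNF446, held both ZNF773 and ZNF135, and ZNF135 had 8.80 and 8.44 CPM with MS1943 and 15.2 and 16.7 CPM with DMSO (-0.89 ± 0.09). Of the 9 tested scattered genes 3 fell and 2 rose, with ZNF114 the extreme on one side and ZNF780B at -0.62 ± 0.09 among the falls. The clusters of the long arm therefore each contained genes called in both directions, apart from ZNF302 to ZNF792. The 5 untested genes outside the ZNF101 to ZNF254 cluster were ZNF560, ZNF536, ZNF541, ZNF534 and the readthrough gene ZNF816-ZNF321P. ZNF560 had 0 reads in all 4 libraries, which at 3 reads allows up to 0.0429 and 0.0631 CPM in the MS1943 libraries and 0.0464 and 0.0420 CPM in the DMSO libraries, for counting error only.

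By TPM, which is per transcript length and so allows levels of different genes to be set side by side, the most abundant members were ZNF544, ZNF146, ZNF428, ZNF83 and ZNF274. ZNF544 had 117 and 118 TPM with MS1943 and 122 and 126 TPM with DMSO, and its CPM did not pass (log2 fold change 0.03 ± 0.06, edgeR adjusted p = 0.621). ZNF146, a protein made almost only of zinc fingers, had 93.5 and 95.4 TPM with MS1943 and 116 and 117 TPM with DMSO, and fell slightly in CPM (-0.14 ± 0.06, adjusted p = 0.0352). That call ended without DMSO replicate 1 (-0.11, adjusted p = 0.110), without MS1943 replicate 1 (-0.13, adjusted p = 0.125), with size factors (adjusted p = 0.0562) and with DESeq2 (adjusted p = 0.0592). ZNF428 had 47.6 and 59.5 TPM with MS1943 and 64.7 and 97.4 TPM with DMSO, and its replicates were farther apart than those of the other 4 (in CPM -0.56 ± 0.11, adjusted p = 0.000227 with edgeR and 0.0826 with DESeq2). Across the 240 tested members, Spearman's rho of the log2 fold change with the average log2 CPM was 0.45, so members with more reads tended to fall less. The rho was 0.38 over the 207 genes outside the ZNF101 to ZNF254 cluster.

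Members with a described role in silencing retrotransposons did not move as a block. Of 10 such genes 5 fell, 1 rose and 4 did not pass, with a median of -0.15. Of all tested chromosome 19 ZNF genes 55.8% fell and 15.0% rose (median -0.31), and the difference from these was not tested. The gene that rose was ZNF417 (0.18, edgeR adjusted p = 0.0289). It did not pass with scaling by total reads, without a filter, with the length offset or with DESeq2. With the length offset 3 fell and 1 rose, the latter being ZNF611 (0.49, adjusted p = 0.00474). ZNF93, a repressor of LINE-1 elements, had 7.88 and 7.52 CPM with MS1943 and 15.4 and 15.9 CPM with DMSO (-1.02 ± 0.08, edgeR adjusted p = 3.98e-09). ZNF91, a repressor of SVA elements, had 20.4 and 20.3 CPM with MS1943 and 24.5 and 24.3 CPM with DMSO (-0.26 ± 0.07, adjusted p = 0.00225). With the length offset ZNF91 had a change of 0.13 and did not pass (adjusted p = 0.276), so its direction depended on that setting. ZNF649 fell by 0.62 on the log2 scale and ZNF765 by 0.32, and ZNF320 by 0.31 except with the length offset (-0.14, adjusted p = 0.378).

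ZNF274, which binds the 3′ ends of other zinc finger genes and recruits SETDB1 there, had 64.8 and 64.1 CPM with MS1943 and 61.3 and 60.9 CPM with DMSO, and did not pass (0.08 ± 0.05, edgeR adjusted p = 0.230). When only its protein-coding transcripts were counted the change was -0.13 with an adjusted p of 0.0456, so no direction can be given for it. ZNF675, an inhibitor of TRAF6 signalling that lies in the ZNF101 to ZNF254 cluster, had 7.22 and 7.74 CPM with MS1943 and 15.6 and 15.7 CPM with DMSO (-1.07 ± 0.09, adjusted p = 2.32e-09). Among 20 tested genes of the list without a KRAB domain or with another described role, 7 rose and 6 fell (median 0.04), or 6 and 7 when scaled by total reads. A similar balance held over all tested genes, where 30% rose and 29.4% fell (median -0.01). Among all tested chromosome 19 ZNF genes 15.0% rose and 55.8% fell. ZNF114, ZNF675, ZNF358 and ZNF628 had the smallest adjusted p of that list. ZNF350, known as the BRCA1 partner ZBRK1, did not pass, with 9.45 and 9.09 CPM with MS1943 and 9.48 and 8.0 CPM with DMSO, values that overlap.

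Members that have been reported as methylated at their promoters in tumours were lower in 8 of 18 cases and higher in 2, with a median of -0.44. These shares were 44.4% and 11.1%, beside 55.8% and 15.0% of all tested chromosome 19 ZNF genes (median -0.31). Without DMSO replicate 2, 6 were lower and 1 higher with a median of -0.26, and with protein-coding transcripts only the median was -0.28. ZNF135, ZNF569, ZNF649 and ZNF677 had the smallest adjusted p, with log2 fold changes of -0.89, -0.58, -0.62 and -0.56. ZNF331 had 20.5 and 22.3 CPM with MS1943 and 18.4 and 17.5 CPM with DMSO (0.25 ± 0.07, edgeR adjusted p = 0.00605). That call ended without MS1943 replicate 2 (adjusted p = 0.0940) and with scaling by total reads (adjusted p = 0.110). ZNF671 was low throughout, with 0.196 and 0.284 CPM with MS1943 and 0.319 and 0.680 CPM with DMSO (-1.10 ± 0.44, adjusted p = 0.0372), and without DMSO replicate 2 its change was -0.44 (adjusted p = 0.558). It also did not pass without MS1943 replicate 1 (-0.84, adjusted p = 0.231), with the length offset (adjusted p = 0.185) or with DESeq2 (adjusted p = 0.235). ZNF582 (-0.06) and ZNF154 (-0.42) did not pass.

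A group of 19 neighbouring chromosome 19 zinc finger genes with other names, 18 of them matched and 16 tested, included 7 that rose and 3 that fell, with a median of -0.04. These shares were 43.8% and 18.8% of those tested, beside 30% and 29.4% of all tested genes. Scaled by total reads, 5 rose and 5 fell. With the length offset 4 rose and 3 fell, and with DESeq2 5 rose and 3 fell. PEG3, an imprinted gene, had 2.27 and 1.68 CPM with MS1943 and 0.471 and 0.533 CPM with DMSO (1.98 ± 0.24). ZSCAN4, associated with telomere elongation in mouse embryonic stem cells, had 3.91 and 3.23 CPM with MS1943 and 1.93 and 1.57 CPM with DMSO (1.04 ± 0.17). ZFP14 fell by 0.79 on the log2 scale, and ZSCAN22 rose by 0.47. The difference between these neighbours and the ZNF genes was not tested.

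The protein partners of KRAB domains were mostly lower. Of 18 corepressor genes 14 fell and 2 rose, with a median of -0.31, while 33.0% of all tested protein-coding genes fell and 34.1% rose. TRIM28, the scaffold that KRAB domains bind, had 496 and 463 CPM with MS1943 and 697 and 686 CPM with DMSO (-0.53 ± 0.06, edgeR adjusted p = 3.09e-07). The HP1 genes CBX1 and CBX3 fell by 0.75 and 0.72 on the log2 scale, the histone deacetylase HDAC1 by 0.66 and the modifier SUMO2 by 0.64. SETDB1 had 44.0 and 41.7 CPM with MS1943 and 49.2 and 47.7 CPM with DMSO (-0.18 ± 0.06, adjusted p = 0.0144), a call that ended without MS1943 replicate 2 (adjusted p = 0.0867), with the length offset (adjusted p = 0.321) and with DESeq2 (adjusted p = 0.0649). SETDB2, a related methyltransferase, and MORC3 were the 2 that rose. The MORC3 call ended with scaling by total reads (0.09, edgeR adjusted p = 0.138) and with the length offset (0.14, edgeR adjusted p = 0.108).

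Of 19 genes of the HUSH silencing complex, ATRX with its partners, DNA methylation and heterochromatin, 14 fell and 1 rose (median -0.57). The largest falls among those named were in LMNB1 of the nuclear lamina (-1.56), UHRF1, which guides maintenance DNA methylation (-1.41), the H3.3 gene H3-3A (-1.26) and the DNA methyltransferase gene DNMT3B (-1.21). UHRF1 had 44.2 and 43.6 CPM with MS1943 and 115 and 118 CPM with DMSO, and the groups were far apart. ATRX did not pass, with 126 and 126 CPM with MS1943 and 135 and 135 CPM with DMSO (-0.10, adjusted p = 0.110), but was called lower with scaling by total reads (-0.21, adjusted p = 0.00129). Of 10 H3K9 demethylase genes 5 rose and 2 fell (median 0.14), or 4 and 4 when scaled by total reads. Over all tested protein-coding genes 34.1% rose and 33.0% fell. KDM4A (0.16), 1 of the 5, did not pass with scaling by total reads, without a filter or with the length offset. KDM7A (0.84), KDM3A (0.55) and JMJD1C (0.44) were higher, and KDM3B (-0.41) was lower.

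**Figure D4:**
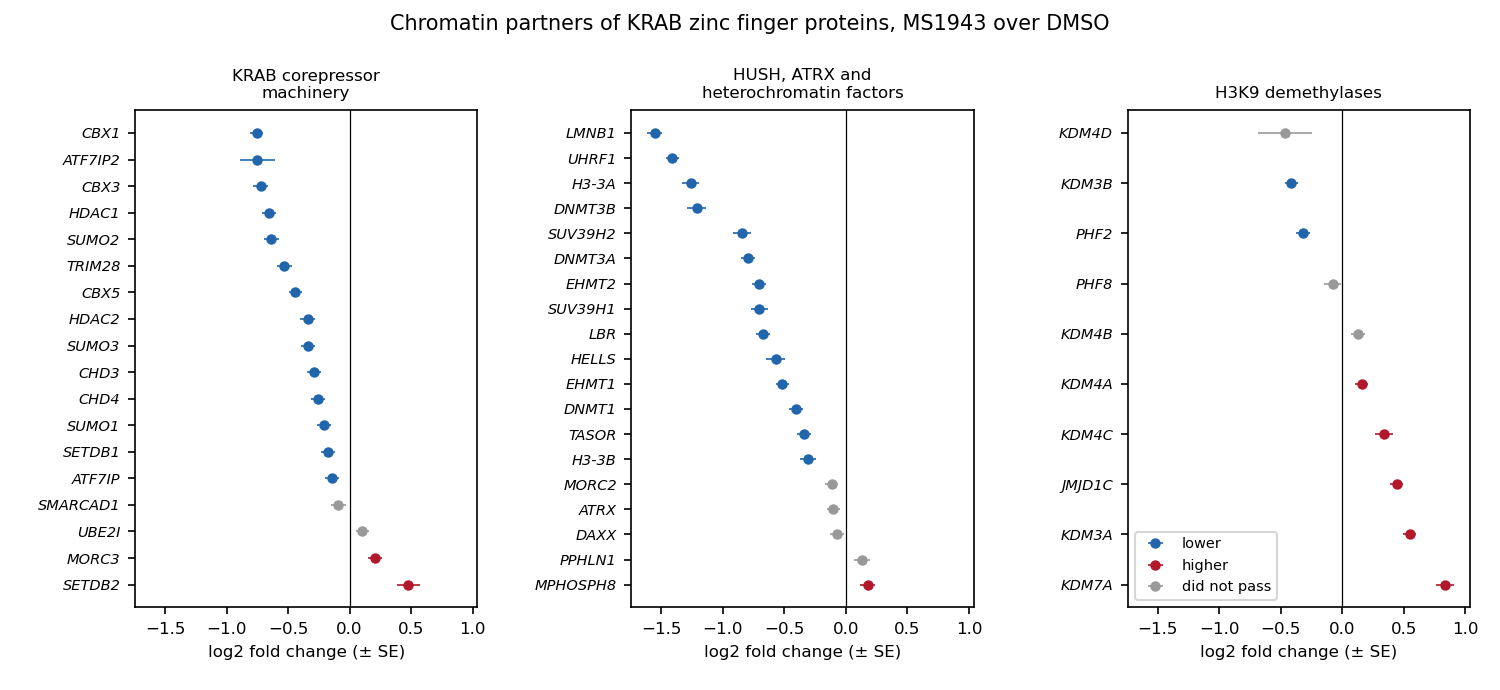
Points give the log2 fold change (MS1943 over DMSO) with bars of 1 SE for genes of KRAB corepressor machinery, of HUSH, ATRX and heterochromatin factors, and for H3K9 demethylases, coloured by call. Falls make up 14 of 18 and 14 of 19 genes in the first panels, and rises 5 of 10 among the demethylases (4 of 10 when scaled by total reads). Over all tested protein-coding genes 33.0% fell and 34.1% rose.

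Features of the genes themselves separated the members only in part. A KRAB A-box pattern was found in the longest annotated coding sequence of 211 of the 248 members that have one. Of 204 tested members with the pattern 119 fell and 29 rose (median -0.34), and of 35 without it 15 fell and 7 rose (median -0.14). Outside the ZNF101 to ZNF254 cluster the medians were -0.26 over 173 genes with it and -0.12 over 33 without it. With the length offset these were -0.20 and -0.17, and without DMSO replicate 2 the median of the 33 was -0.06. The number of zinc fingers, with a median of 12 and a range of 0 to 36, had a Spearman's rho of -0.08 with the log2 fold change (n = 239). Because relatives share sequence, the share of a gene's 31-base words found in no other gene was counted. It had a median of 88.0% over all members and of 82.1% in the ZNF101 to ZNF254 cluster, and was under 50% for 16 members. Among the 97 tested members with at least 90% such words 48 fell and 19 rose (median -0.24). In the ZNF101 to ZNF254 cluster, 27 of 28 tested genes with at least 75% such words fell (median -1.04), beside 32 of 33 in the whole cluster.

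Promoter windows of 300 bases (250 before and 50 after the RefSeq start) were available for 217 members, 29 of them in the ZNF101 to ZNF254 cluster. The observed-to-expected CpG ratio had a median of 0.438 in that cluster and of 0.798 in the 188 windows of other members. Its Spearman's rho with the log2 fold change was 0.42 over 210 tested members, 0.26 over the 183 outside the cluster and 0.07 over the 27 within it. The sequence CCAAT, in either orientation, stood in all 29 windows of the cluster, in 46.8% of the other members' windows and in 35.7% of all 27305 windows. The ETS motif CCGGAAG stood in 72.4% of the cluster's windows, in 41.5% of the other members' and in 10.7% of all windows, and the E2F motif TTTGGCGC in 17.2%, 2.13% and 0.659%. The other 9 motifs searched, on both strands, were found in at most 75.9% of the cluster's windows (GGGCGG, also in 44.6% of all windows).

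The 10-base word CCTGATTGGA, read as TCCAATCAGG in the lines printed above, was the most widespread 10-base word in the cluster's windows. It holds CCAAT in its reverse reading, so the counts of the word and of CCAAT overlap. It was picked from sequence alone, but after the fall of the cluster was known. It stood in 26 of the cluster's 29 windows, in 44 members' windows in all, and in 106 of all 27305 windows (0.388%). Among tested members outside the cluster, 10 of 18 with the word fell and 2 rose (median -0.47), and 80 of 165 without it fell and 30 rose (median -0.21). All 18 lie in 2 short-arm clusters, 15 of them in ZNF653 to ZNF791 and 3 in ZNF554 to ZNF77. Within ZNF653 to ZNF791, 9 of 15 tested genes with the word fell (median -0.48), and 9 of 10 without it fell (median -0.54). In that cluster the word thus did not go with a larger fall. The pooled -0.47 comes from these 2 clusters alone, while the -0.21 comes from all clusters outside ZNF101 to ZNF254 and from scattered genes. Among ZNF genes of other chromosomes, 9 of 11 tested genes with it fell and none rose in edgeR, where all 11 fitted changes were below 0 (median -0.94), and 70 of 181 without it fell and 43 rose (median -0.14). Among protein-coding genes without a ZNF name, 4 of 16 tested genes with the word fell and 7 rose (median 0.05).

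The genes of other chromosomes that carry the word are named here after their values were seen. ZNF107 on chromosome 7 had 4.42 and 6.03 CPM with MS1943, against 14 and 13.7 CPM with DMSO (-1.43 ± 0.12, edgeR adjusted p = 2.56e-09). ZNF138 and ZNF92 on the same chromosome had changes of -1.10 and -1.05, and ZNF680, also there, of -0.94. ZNF695 on chromosome 1 had 4.75 and 4.41 CPM with MS1943 and 8.41 and 9.29 CPM with DMSO (-0.95 ± 0.11). ZNF862 and ZNF267 did not pass. Relatives of 1 ancestral gene share both promoter and coding sequence, so the word and the gene family cannot be told apart here. CCAAT on its own gave medians of -0.21 with it and -0.24 without it among members outside the cluster. Among ZNF genes of other chromosomes, 43 of 82 tested genes with CCAAT fell (median -0.38), and 36 of 110 without it fell (median -0.06). ZNF91, with the word and the ETS motif in its printed window, fell by 0.26 on the log2 scale, against 1.79 for ZNF681, whose window holds both too.

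**Figure D5:**
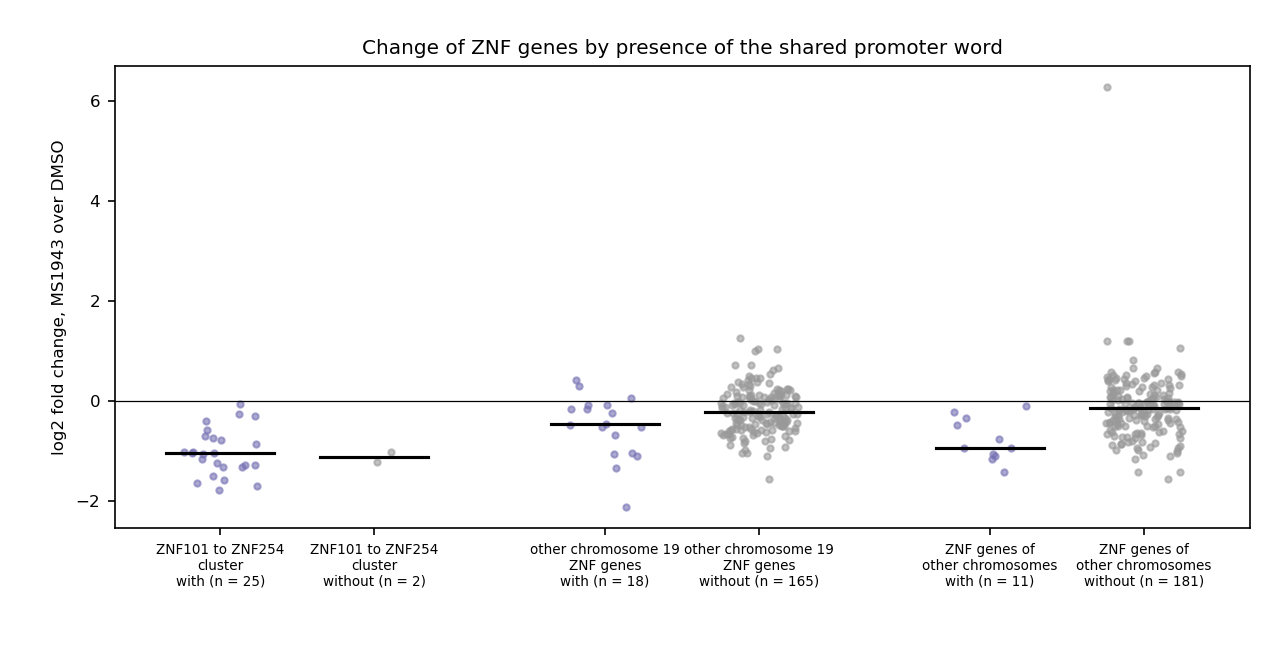
Points are the log2 fold changes (MS1943 over DMSO) of tested ZNF genes with a RefSeq promoter window, split by whether the window holds the shared 10-base word, with lines at medians. With the word the medians are -1.04, -0.47 and -0.94 in the 3 groups of genes, and without it -1.12 (2 genes), -0.21 and -0.14. The genes behind the -0.47 lie in 2 short-arm clusters. Within one of these, ZNF653 to ZNF791, the medians are -0.48 with the word and -0.54 without it.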

How the data were processed

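RNA-seq of 4 libraries of MDA-MB-468 cells was analysed, grouped by the treatment label (MS1943, n = 2; DMSO, n = 2). Per the labels' protocols, libraries came from poly(A) RNA with a TruSeq kit that does not mark strand. Salmon 0.9.1, R 3.4.3, DESeq2 and hg38 are named in the submitters' processing notes; the annotation release is not given in the sources used here. Deposited estimated counts are Salmon's transcript-level reads, often fractional, and the deposited TPM values are length-scaled abundances, both per the file headers.

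Of 197653 transcripts 193505 matched GENCODE 29; the other 4148 held at most 0.496% of a library's reads. Estimated counts were summed per gene and rounded. The test was edgeR 4.0.16 (R 4.3.3): TMM scaling, filterByExpr, quasi-likelihood F test, Benjamini-Hochberg adjustment over 19358 genes, called at 0.05. It was tested on simulated data, where with changed genes present false calls made up a larger share of all calls than the threshold sets. In that run 36 unchanged genes were called. Of the changed genes 49 of 67 were found at 1.5-fold, 58 of 67 at 2-fold and 65 of 66 at 4-fold. SE is the log2 fold change over the square root of F. Coordinates are 1-based, GENCODE 29 on hg38. Promoters are RefSeq's, GRCh38.p14. KRAB boxes and zinc fingers were found by pattern in translated GENCODE coding sequences.

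Named genes are the 8 largest rises and falls among called members averaging at least 1 CPM whose groups did not overlap. Also named are the 5 highest by TPM and the smallest adjusted p in each direction per cluster. Members of known role and up to 4 genes per list were added. The lists of partner and role genes were written from general knowledge, some share genes, and the members and lists were chosen with earlier results of these data known. Alternatives were other scalings, no filter, protein-coding transcripts alone, a length offset, DESeq2 1.42.0, other cluster gaps and leaving out each library.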

Additional observations from a re-analysis of the deposited data

How the results depend on the processing

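The excess of falls held under each alternative run. The 36 higher and 134 lower genes became 36 and 132 with DESeq2 size factors, 24 and 153 with scaling by total reads, 28 and 137 without a filter, 35 and 131 with protein-coding transcripts alone, 29 and 104 with the length offset, and 28 and 106 with DESeq2's own test. Requiring 1.5-fold as well left 9 higher and 68 lower. Leaving out 1 library gave 28 to 35 higher and 121 to 130 lower. Scaling by total reads put the median of all genes at -0.12, against which the members' -0.42 and the cluster's -1.18 should be read. The members' median was -0.30 with size factors, -0.35 without a filter, -0.27 with the length offset, -0.24 for genes with at least 90% unique words (chosen after seeing the data), and -0.35 to -0.26 without 1 library. The ZNF101 to ZNF254 median was -1.10 without a filter, -0.95 with the length offset, -1.04 for genes with at least 75% unique words (also chosen later), and -1.13 to -1.06 without 1 library. The log2 ratio of the members' summed CPM was -0.14, but -0.25 as a share of total reads and -0.23 in TPM. More lower than higher calls were made in 8 of 9 clusters as reported, in 5 of 6 with a 2 Mb gap and in 7 of 10 with a 500 kb gap. ZNF274 reversed to -0.13 (adjusted p = 0.0456) with protein-coding transcripts alone, and ZNF91 to 0.13 (adjusted p = 0.276) with the length offset; the cause was not tested. With that offset 127 of the 170 called members remained called, 126 in the same direction; the exception was ZNF112, called lower (-0.45) but higher with the offset (0.70, adjusted p = 0.00169). No paired analysis was possible because the labels give no replicate numbers. Low read counts limit the genes under 1 CPM, and paralogues sharing sequence limit how reads were divided.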
